A study of Mus musculus with 8 samples.

Results

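The genes of the proteasome, the enzyme complex that degrades ubiquitin-tagged proteins, were read in mouse liver before and after TCPOBOP, with and without combined loss of MET and EGFR signalling. Members were all genes whose symbol on the array begins with Psma, Psmb, Psmc, Psmd, Psme, Psmf or Psmg. The rule found 49 of 18193 genes, and 48 of them were among the 12110 genes kept after a filter on low signal. They comprised 14 subunits of the core particle, 17 subunits of the regulatory cap, 4 immunoproteasome members (Psmb8, Psmb9, Psmb10 and Psme1), 7 assembly chaperones and 7 others. Among the others, Psmc3ip and Psme3ip1 share the prefix but are not subunits. Psma8, the testis form of an alpha subunit, was the member not kept. Psme2 shared its probe set with Psme2b and was not read.

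The proteasome is a barrel of stacked rings capped at its ends. The outer rings are built from alpha subunits and gate the entry. The inner rings are built from beta subunits, of which Psmb5, Psmb6 and Psmb7 carry the chymotrypsin-like, caspase-like and trypsin-like sites. The cap recognises ubiquitin chains in its base and lid, removes them, and threads the protein into the barrel with a ring of ATPases. In cells exposed to interferon gamma, Psmb8, Psmb10 and Psmb9 take the place of Psmb5, Psmb7 and Psmb6 and change which peptides are made for antigen presentation. The transcription factor NRF1, encoded by Nfe2l1, is known to raise core and cap genes together through antioxidant response elements when proteasome activity falls short.

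RNA was read on 8 Affymetrix mouse arrays, 1 for each of 2 arms on days 0, 1, 2 and 5. All mice carried a floxed Met gene and a Cre that tamoxifen switches on, given in the labels as Metff/ff:ERCre+/+ and in the protocol as METfl/fl: TamCre+/+; the promoter that drives Cre is not named. Control mice were littermates that were injected with corn oil and were not described as eating the inhibitor diet. The arm labelled MET KO + EGFRi had 5 daily injections of 100 µl tamoxifen at 10 mg/ml, and then a diet with canertinib, an EGFR inhibitor, aimed at 80 mg/kg per day from the day before TCPOBOP. TCPOBOP, an agonist of the constitutive androstane receptor that makes mouse hepatocytes enlarge and divide, was gavaged once at 3 mg/kg, at least 5 days after the last tamoxifen. Each array held RNA pooled from the livers of a group. The labels do not say how many mice were pooled, their age and sex, or whether those of day 0 were gavaged with TCPOBOP. The arms differ in tamoxifen, Met deletion and canertinib at the same time, which cannot be told apart.

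Each arm and day had 1 array, so no spread between animals was measured. Any p-value below rests on how the difference between arms varied from day to day. In the averaged comparisons, a change after day 0 that differs between the arms adds to that spread. Median signal over all probe sets ran from 224 to 251, and the ratio of 3' to 5' actin signal from 1.57 to 2.36. The albumin gene Alb and the carrier protein genes Ttr and Apoa1 were high in every array (lowest signal 35322, of Apoa1). Met itself was not lower in the arrays labelled MET KO + EGFRi at the probe set read (log2 difference 0.26, MET KO + EGFRi minus control, limma adjusted p = 0.509). Whether that probe set lies in the deleted part of Met was not analysed here, so it does not check the labels. Cyp2b10, a target of the receptor that TCPOBOP activates, was higher after day 0 (log2 difference 6.38, adjusted p = 1.63e-06). In whole liver, fewer cells of a type and less RNA per cell cannot be told apart.

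Promoter windows of 250 bases before to 50 after the start were matched in RefSeq (GRCm38.p6) for 41 of the 49 members. The antioxidant response element core, TGACNNNGC on either strand, lay in 4 of 25 core and cap windows (16%) and in 12.5% of the windows of 27025 genes. Those 4 were Psmb5, Psmb6, Psmc6 and Psmd12, and a stretch of 120 bases from each is shown with the match in capitals, since these are the letters that NRF1 and NRF2 are known to bind. Psmb5 is read from the minus strand of chr14:54617996-54618115, Psmb6 from the plus strand of chr11:70525237-70525356, Psmc6 from the plus strand of chr14:45329587-45329706 and Psmd12 from the plus strand of chr11:107479278-107479397.
Psmb5: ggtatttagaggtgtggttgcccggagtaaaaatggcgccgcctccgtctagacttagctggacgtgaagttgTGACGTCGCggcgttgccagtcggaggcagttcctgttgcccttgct
Psmb6: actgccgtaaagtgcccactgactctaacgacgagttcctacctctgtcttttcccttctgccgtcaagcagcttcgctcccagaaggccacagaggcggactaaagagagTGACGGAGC
Psmc6: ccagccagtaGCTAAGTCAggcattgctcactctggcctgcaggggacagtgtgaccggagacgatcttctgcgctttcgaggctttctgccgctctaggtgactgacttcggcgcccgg
Psmd12: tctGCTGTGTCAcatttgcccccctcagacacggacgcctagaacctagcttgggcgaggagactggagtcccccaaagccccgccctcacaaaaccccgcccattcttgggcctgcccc
The match began 47 bases before the start in Psmb5, 9 in Psmb6, 227 in Psmc6 and 247 in Psmd12. In Psmc6 and Psmd12 it is on the opposite strand and is shown as its reverse complement. A match is a description of the letters and not of binding. The GC box, GGGCGG on either strand, was in 15 of 25 core and cap windows (60%) against 35.9% of all. CCAAT on either strand was in 15 of 41 member windows (36.6%) against 37.9% of all.

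In control livers nearly every core and cap gene had its lowest signal on day 0. The day 0 array was below all 3 later control arrays for 28 of 31 core and cap genes, among them 17 of 17 cap and 11 of 14 core genes, where 25.1% of all kept genes, and 29.1% of those with mean signal in the upper quartile of probe sets, had that order. The mean of the later days was above day 0 in 30 of the 31 (45.9% of all genes). That mean minus day 0 had a median of 0.64 over cap genes and 0.47 over core genes, on the scale of log2 of the signal plus 71, against -0.04 over all kept genes. On day 1, 13 of 17 cap genes but 2 of 14 core genes were at least 1.5-fold above day 0, a level passed by 7.95% of all genes. On day 2 the counts were 10 cap and 4 core genes (8.42% of all), and on day 5 they were 7 and 1 (9.07% of all). Every one of these counts uses the control array of day 0, which has no replicate.

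In MET KO + EGFRi livers the same readings were smaller. Day 0 was below all later arrays of that arm for 11 of 31 core and cap genes, where 27.4% of all genes had that order. The mean of the later days was above day 0 in 22 of the 31 (50.8% of all genes), with a median difference of 0.08 over cap genes and 0.06 over core genes. At least 1.5-fold above day 0 were 1 of 31 core and cap genes on day 1 (6.05% of all genes), 0 on day 2 (7.57%) and 1 on day 5 (8.97%). The gene on both days was Psmd3, a structural subunit of the lid.

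**Figure D1:**
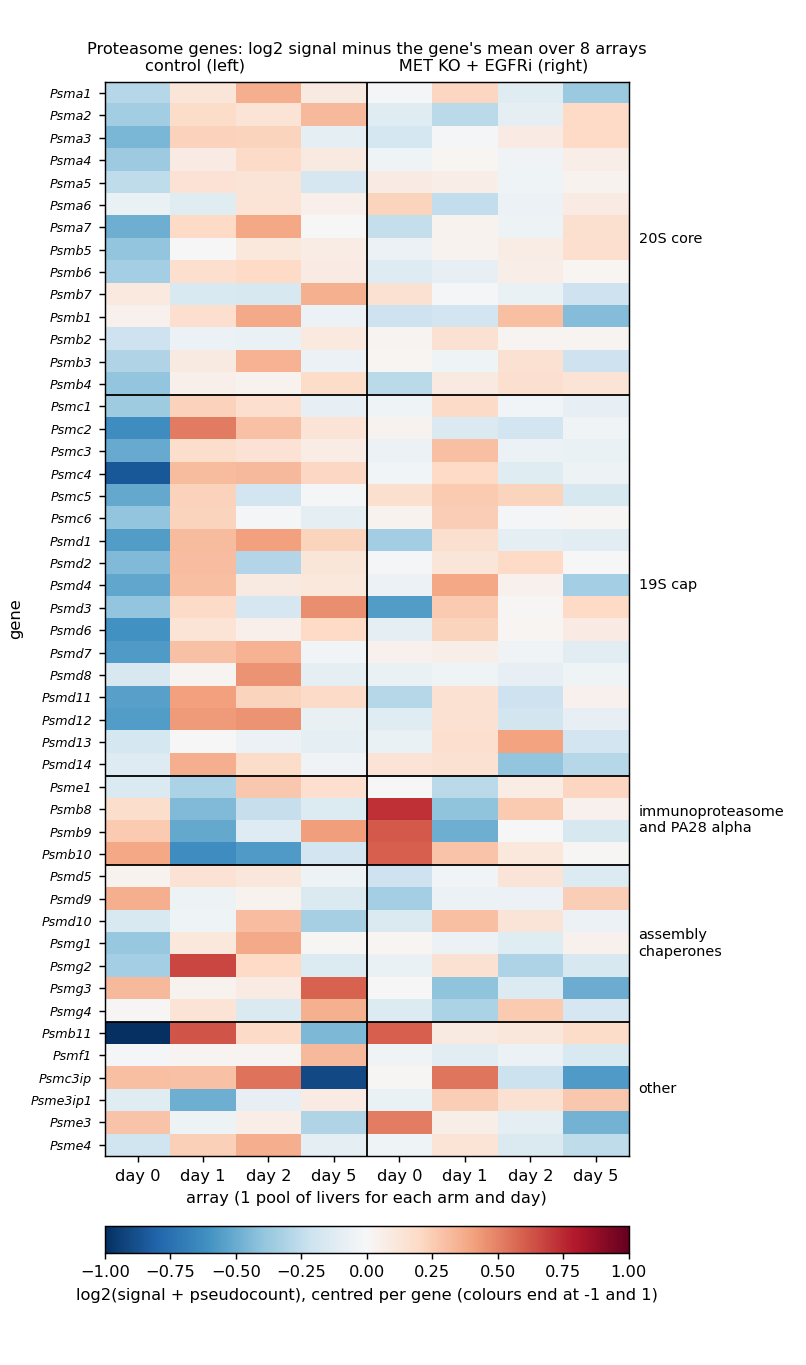
Each row is a kept member, grouped by class, and each column an array by arm and day. Colour gives the log2 signal minus the gene's mean over the 8 arrays. The control day 0 column is the low one for core and cap genes, with a median of -0.39 over the 31 genes.

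Between the arms, core and cap genes had their widest difference on day 0. On day 0, 29 of 31 core and cap genes had more signal in MET KO + EGFRi than in control, against 46.8% of all kept genes and 48.5% of those in the upper signal quartile. The 2 exceptions were Psmb1 and Psmd3. The median log2 difference was 0.43 over cap and 0.26 over core genes, and -0.03 over all kept genes. The 4 genes at least 1.5-fold higher on that day were the cap genes Psmc2, Psmc4, Psmc5 and Psmd7, a size passed by 7.54% of all genes. On days 1, 2 and 5, 12, 7 and 8 of the 31 genes were higher in MET KO + EGFRi, against 50.7%, 52.2% and 48.6% of all genes. The medians on those days were -0.07, -0.20 and -0.14 over cap genes and -0.10, -0.16 and -0.06 over core genes. In 11 of the 31 genes the MET KO + EGFRi array was above control on day 0 and below it on all 3 later days, an order found in 5.16% of all genes. The arm difference on day 0 and the control change share the control array of day 0, so they are not independent.

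**Figure D2:**
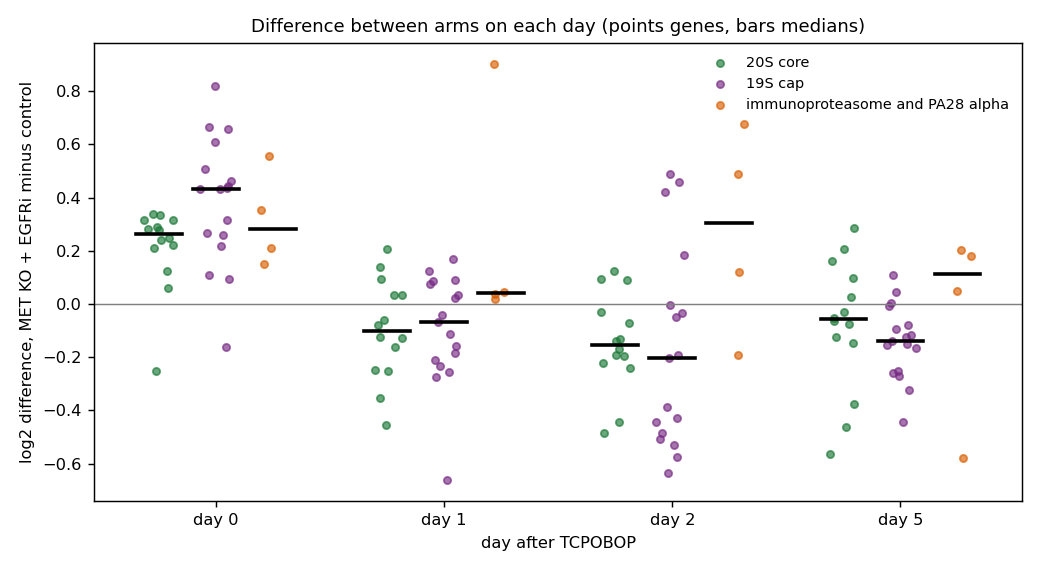
For each day, the points are members by class and the vertical axis is the log2 signal in MET KO + EGFRi minus that in control. On day 0 the core and cap points lie above 0 for 29 of 31 genes, and on the later days for 12, 7 and 8.

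The counts and class medians above were not tested, and limma was run gene by gene on averaged comparisons and the interaction. With limma across all 12110 kept genes and Benjamini-Hochberg adjustment, 0 of 48 members were called in the later days against day 0 averaged over arms, where 0.495% of all genes were called. At an unadjusted p under 0.05 there were 12 members in that comparison (10.2% of all genes). For the arm difference averaged over days 0 members were called (0.562% of all genes), and 2, Psmb10 and Psmg3, had an unadjusted p under 0.05 (12.1% of all). For day 1, day 2 and day 5 alone against day 0, 0 members were called, where 0.124%, 0.0578% and 0.289% of all genes were, and 13, 5 and 10 had an unadjusted p under 0.05 (7.7%, 7.66% and 10.7% of all). The median of the later days against day 0 averaged over arms was 0.38 over cap and 0.23 over core genes. It was 0.083 and 0.064 when the control array of day 0 was left out, and 0.64 and 0.47 when that of MET KO + EGFRi was. Without the day 0 array of an arm, the fit gives the change within the other arm, so these values repeat those above. The interaction of arm and TCPOBOP, which compares the change between arms, called 0 members and 0% of all genes. The 4 members with an unadjusted p under 0.05 in it were Psmb11, Psmc2, Psmc4 and Psmd7 (4.43% of all). The fitted interaction was above 0 for 2 of 31 core and cap genes, Psmd3 and Psmd13, and for 53.7% of all genes. Its median was -0.54 over cap, -0.36 over core and 0.04 over all genes.

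The alpha ring genes had moderate steps in control. Psma7 had control signals of 3107, 5049.7, 5767 and 4376 on days 0, 1, 2 and 5, in that order, and MET KO + EGFRi signals of 3707, 4506, 4223 and 4908. Psma3 had control signals of 4274, 6935, 6899.6 and 5554 and MET KO + EGFRi signals of 5217, 5827, 6252 and 6788. Both day 0 arrays of these genes lay below all 6 later arrays, and the log2 differences of the later days from day 0 averaged over arms were 0.48 (SE 0.18, limma adjusted p = 0.403) for Psma7 and 0.42 (SE 0.17, adjusted p = 0.454) for Psma3. Psma2 had control signals of 4196, 6099, 5916 and 6715 and MET KO + EGFRi signals of 4910.0, 4433, 5000.4 and 6149.9. Psma1 had control signals of 1721, 2306, 2742 and 2260.5 and MET KO + EGFRi signals of 2104, 2467, 1937 and 1622. For Psma2 and Psma1 the control arm had its lowest signal on day 0, and the other arm did not. Psma6 had the smallest control step of the ring, with a mean log2 change of 0.09 against -0.29 in MET KO + EGFRi. Psma4 and Psma5 had control changes of 0.48 and 0.29.

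Of the constitutive catalytic subunits, the chymotrypsin-like and caspase-like ones followed the alpha ring and the trypsin-like one did not. Psmb5 had control signals of 3785, 4982, 5384 and 5256 and MET KO + EGFRi signals of 4786, 5107, 5269 and 5631. Psmb6 had control signals of 3015, 4326, 4414 and 4069 and MET KO + EGFRi signals of 3504, 3625, 4025 and 3892. In both genes the 2 day 0 arrays lay below the 6 later ones, and their log2 differences from day 0 were 0.30 (SE 0.15, limma adjusted p = 0.556) and 0.31 (SE 0.15, adjusted p = 0.564). Psmb7 had control signals of 9374, 7878, 7851 and 11249.9 and MET KO + EGFRi signals of 9788, 8676, 8371 and 7588. Its control arrays of days 1 and 2 were below day 0 and that of day 5 above it, and in MET KO + EGFRi every later array was below day 0. Its difference averaged over arms was -0.17 (SE 0.18, adjusted p = 0.823).

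The structural beta subunits were mixed. Psmb4 had control signals of 5593, 7640.4, 7546 and 8388 and MET KO + EGFRi signals of 6108, 7822, 8238 and 8089.6. Its mean change was 0.48 in control and 0.39 in MET KO + EGFRi, and both day 0 arrays lay below the others (averaged log2 difference 0.44, SE 0.14, limma adjusted p = 0.344). Psmb3 had control signals of 1863, 2453, 2948 and 2212 and MET KO + EGFRi signals of 2334, 2239.8, 2573 and 1992. Psmb1 had control signals of 2845, 3104, 3603 and 2645 and MET KO + EGFRi signals of 2379.9, 2412, 3423 and 2023. Psmb1 was the core gene whose MET KO + EGFRi array was the lower one on day 0, and it was lower on all 4 days, as were 10.3% of all genes (averaged arm difference -0.26, SE 0.12, adjusted p = 0.449). Psmb2 had control signals between 1720.1 and 2152 and MET KO + EGFRi signals between 2038 and 2227.

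The 6 ATPases of the cap base, Psmc1 to Psmc6, all had their lowest control signal on day 0. Psmc4 had control signals of 992, 2304, 2314 and 2128 and MET KO + EGFRi signals of 1803, 2124, 1683 and 1767. Its control day 0 array stood apart from the other 7, and its mean log2 change was 1.13 in control and 0.03 in the other arm (interaction -1.09, SE 0.30, limma adjusted p = 0.984; averaged over arms 0.58, SE 0.24, adjusted p = 0.475). Psmc2 had control signals of 2623, 5862, 5018 and 4472 and MET KO + EGFRi signals of 4182, 3681, 3563 and 3981. Every later array was above day 0 in control and below it in MET KO + EGFRi, an order found in 4% of all genes. The Psmc2 probe set read here can bind related RNAs (its name ends in _x_at), and another Psmc2 probe set had control signals of 3199.7, 4084, 3656 and 5671 and MET KO + EGFRi signals of 3116, 4359.9, 5335 and 3952. That probe set had no day 0 difference of the same direction and was above day 0 in both arms. Psmc5 had control signals of 1772, 3002, 2220.0 and 2534 and MET KO + EGFRi signals of 2853, 3072, 2994 and 2272, with an averaged arm difference of 0.24 (SE 0.16, adjusted p = 0.619). Psmc1, Psmc3 and Psmc6 had control changes of 0.46, 0.64 and 0.43 and changes in MET KO + EGFRi of 0.07, 0.12 and 0.04. In all of the last 3 the MET KO + EGFRi array was above control on day 0, by 0.32, 0.44 and 0.43. Psmc6 is one of the genes with the element shown above.

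**Figure D3:**
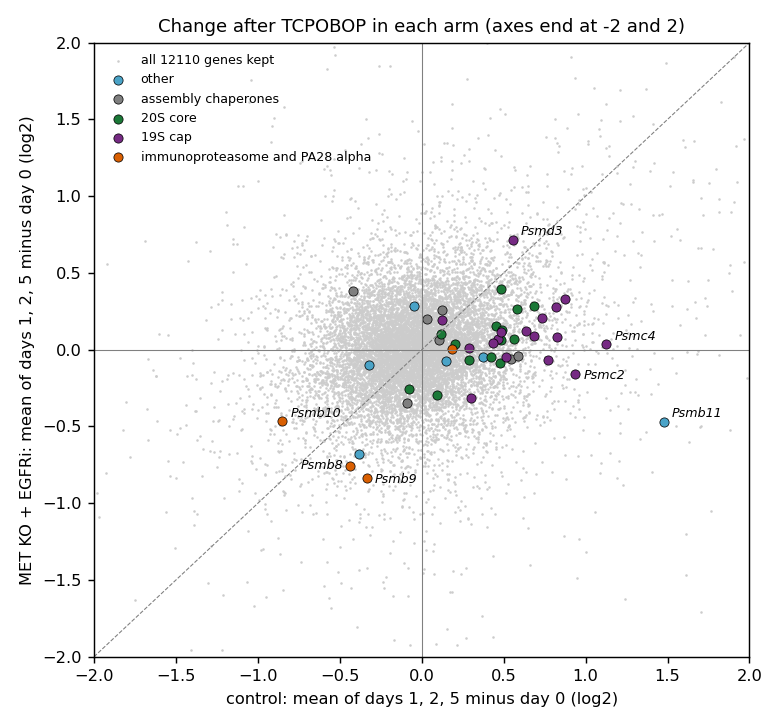
Each point is a kept member, with the control log2 change (mean of days 1, 2 and 5 minus day 0) on the horizontal axis and the same change in MET KO + EGFRi on the vertical axis. Cap and core genes spread along the horizontal axis up to 1.13 for Psmc4 while most stay near 0 on the vertical one, and Psmb8, Psmb9 and Psmb10 lie below 0 on both.

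The scaffolds and ubiquitin receptor of the base, Psmd1, Psmd2 and Psmd4, shared the control step. Psmd1, the scaffold that holds the ubiquitin receptor Adrm1, had control signals of 2066, 3858, 4115 and 3601 and MET KO + EGFRi signals of 2413, 3455, 2876 and 2862. Both day 0 arrays lay below the 6 later ones (averaged log2 difference 0.60, SE 0.17, limma adjusted p = 0.29). Psmd2, the scaffold on which ubiquitin shuttles dock, had control signals of 1807, 3082, 2009 and 2696 and MET KO + EGFRi signals of 2462, 2707, 2847 and 2466. Psmd4, which binds ubiquitin chains directly, had control signals of 1961, 3518, 3038 and 3069 and MET KO + EGFRi signals of 2727, 3752, 2932 and 2237. For both, day 0 was the lowest control array, and the control changes were 0.48 for Psmd2 and 0.69 for Psmd4.

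The lid held the member with the smallest adjusted p after day 0. Psmd3, a structural lid subunit, had control signals of 1409, 2148, 1659 and 2617 and MET KO + EGFRi signals of 1252, 2265, 1896 and 2159.9. Both arms shared its change, at 0.56 in control and 0.72 in MET KO + EGFRi, and the averaged log2 difference was 0.64 (SE 0.15, limma adjusted p = 0.192). Psmd11, another structural lid subunit, had control signals of 6081, 11844, 10389.6 and 10172 and MET KO + EGFRi signals of 7293, 9899.6, 7704 and 9153. Both day 0 arrays lay below the later 6 (0.55, SE 0.17, adjusted p = 0.336), although the probe set, ending in _s_at, can bind related RNAs. Psmd14, the lid enzyme that cuts ubiquitin chains off, had control signals of 1782, 2539.9, 2234 and 1906 and MET KO + EGFRi signals of 2156, 2184, 1474 and 1588. Its control arrays were highest on day 1 and back near day 0 on day 5, and in the other arm days 2 and 5 were the low ones (mean changes 0.30 and -0.31). Psmd13 had control signals between 864 and 984 and MET KO + EGFRi signals between 854 and 1321, without a common order of days.

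Psmd6, Psmd7, Psmd8 and Psmd12 complete the lid genes of the array. Psmd12, with the element shown above, had control signals of 1804, 3633, 3701 and 2551 and MET KO + EGFRi signals of 2463, 2989, 2355 and 2537, and is given because of that match and not by the rule for named genes. Psmd7, the partner of Psmd14, had a control change of 0.77 and a change of -0.07 in MET KO + EGFRi (interaction -0.84, SE 0.33, limma adjusted p = 0.999). Psmd6 had 0.74 and 0.21, and Psmd8 0.29 and 0.01. All 4 were higher in MET KO + EGFRi than in control on day 0.

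Over both arms, 10 core and cap genes had the 2 day 0 arrays below all 6 later arrays, an order found in 5.78% of all genes. They were Psma3, Psma4, Psma7, Psmb4, Psmb5 and Psmb6 of the core and Psmd1, Psmd3, Psmd6 and Psmd11 of the cap. The day of the highest signal was counted for core and cap apart. In control, 10 of 17 cap genes were highest on day 1, where 19.1% of all genes were, and 8 of 14 core genes were highest on day 2 (21.8% of all). In MET KO + EGFRi, 14 of 17 cap genes were highest on day 1 (24.8% of all), and the core genes were spread over days 0, 1, 2 and 5 with 3, 2, 4 and 5 genes. The day of the highest signal within an arm was not tested.

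**Figure D4:**
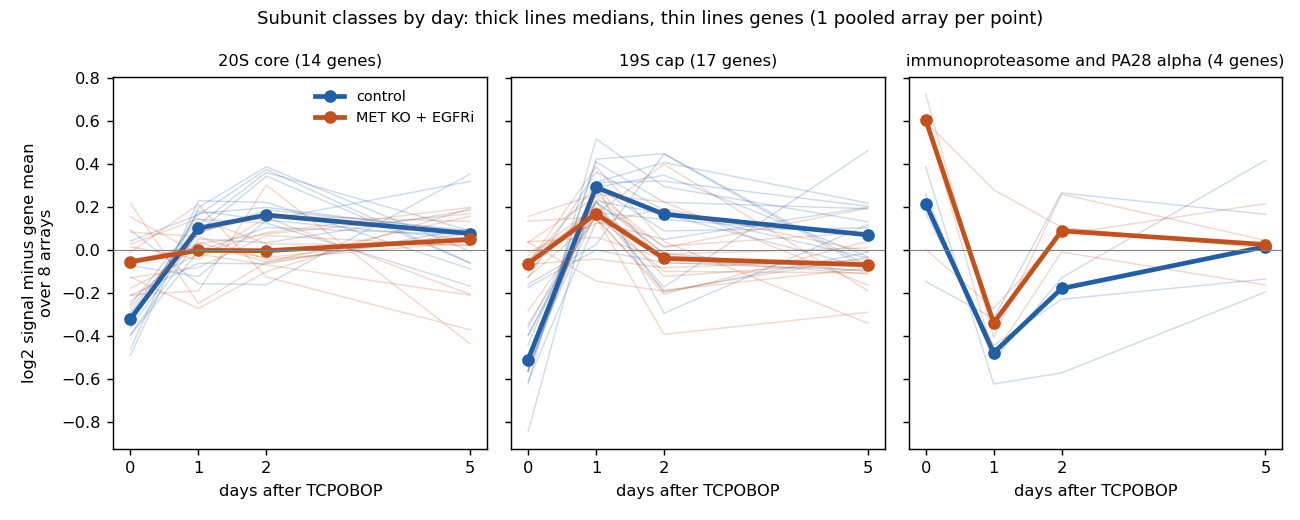
The lines give the median centred log2 signal of core, cap and immunoproteasome genes by day in each arm, with the members behind them. In control, core and cap medians step up between day 0 and day 1 while the immunoproteasome median steps down; in MET KO + EGFRi the core and cap lines stay between -0.07 and 0.17.

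The immunoproteasome catalytic genes went the other way, with day 0 the highest array or close to it. Psmb8, the inducible partner of Psmb5, had control signals of 1282, 812, 954 and 1023 and MET KO + EGFRi signals of 1916, 836, 1368 and 1168. Day 0 was the highest array in each arm, and the averaged log2 difference of the later days was -0.60 (SE 0.16, limma adjusted p = 0.257). Psmb10, the inducible partner of Psmb7, had control signals of 1397, 658, 685 and 909.8 and MET KO + EGFRi signals of 1627, 1293, 1138 and 1057. Both day 0 arrays of Psmb10 lay above all 6 later ones, an order found in 4.62% of all genes (-0.66, SE 0.19, adjusted p = 0.281). Its MET KO + EGFRi array was above control on all 4 days, as in 9.94% of all genes (averaged arm difference 0.50, SE 0.16, adjusted p = 0.28), although the control array of day 0 exceeded 3 of the MET KO + EGFRi arrays. Psmb9, the inducible partner of Psmb6, had control signals of 884, 488, 658 and 993 and MET KO + EGFRi signals of 1149, 495, 721 and 641. Its control array of day 5 was above day 0, unlike that of the other arm (-0.59, SE 0.20, adjusted p = 0.38). Psme1, part of the activator that pairs with the immunoproteasome, had control signals of 3376, 2989, 4515 and 4210.3 and MET KO + EGFRi signals of 3752, 3089, 3941 and 4360.4, with day 1 lowest in both arms and no shift common to the later days (0.09, SE 0.14, adjusted p = 0.887).

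**Figure D5:**
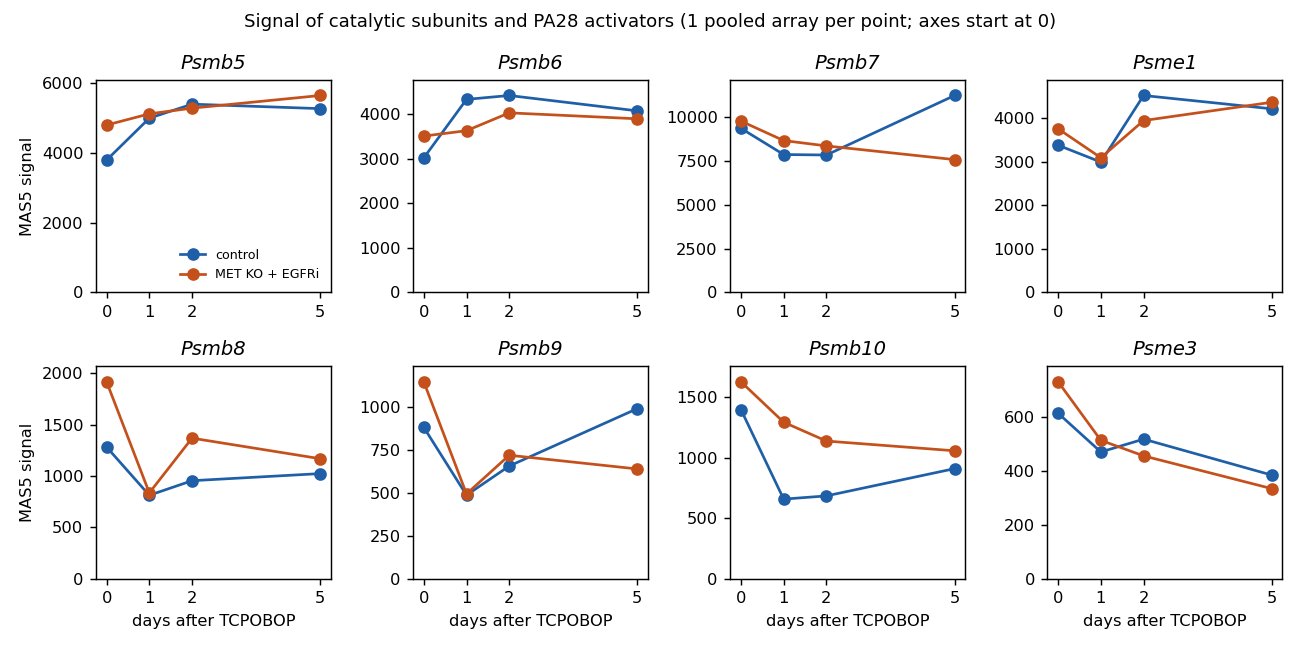
Signal (linear, arbitrary units) on days 0, 1, 2 and 5, with 1 array per point and a panel per gene. The genes are the 3 constitutive catalytic genes, their 3 inducible partners and the activator genes Psme1 and Psme3. Psmb5 and Psmb6 are lowest on day 0 in both arms, and Psmb8 and Psmb10 are highest there.

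Of the 4 immunoproteasome windows, only that of Psmb8 held the gamma activated site core, TTCNNNGAA, through which interferon gamma is known to act. Those of Psmb9, Psmb10 and Psme1 did not. This motif was in 3 of 41 member windows (7.32%) and in 8.47% of all windows. The stretches just before each start are shown with the core in capitals, from the plus strand of chr17:34198075-34198194 for Psmb8 and the minus strand of chr17:34187331-34187450 for Psmb9.
Psmb8: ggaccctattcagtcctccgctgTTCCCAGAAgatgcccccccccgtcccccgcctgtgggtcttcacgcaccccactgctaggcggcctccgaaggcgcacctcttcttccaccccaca
Psmb9: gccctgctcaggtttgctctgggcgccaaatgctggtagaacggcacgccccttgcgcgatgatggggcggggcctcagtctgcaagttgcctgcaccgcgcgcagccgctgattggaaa

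Interferon-stimulated genes were high on day 0 in MET KO + EGFRi, where Psmb8, Psmb9 and Psmb10 also had the highest array of that arm. Of all kept genes, 24.3% were highest on day 0 in that arm. The arm differences on day 0 were smaller for Psmb8, Psmb9 and Psmb10 (log2 0.56, 0.35 and 0.21). That of Psmb10 was wider on days 1 and 2 (0.90 and 0.68). Of 27 listed genes 18 were kept, and 18 of 18 were higher in MET KO + EGFRi on day 0 (46.8% of all genes). Their median log2 difference was 1.03. On days 1 and 2, 14 and 9 of the 18 were higher (medians 0.29 and 0.01), and on day 5, 16 of the 18 were lower in MET KO + EGFRi (median -0.52). In that arm 18 of 18 had a lower mean of the later days than day 0 (median -1.02), while in control 9 were higher and 9 lower (median 0.02). The summed signal of the 23 with a probe set was 63992 in MET KO + EGFRi on day 0 and ran from 28446 to 46646 in the other 7 arrays. Gbp3, a guanylate-binding protein induced by interferon, had control signals of 249, 245, 245 and 439.6 and MET KO + EGFRi signals of 1347, 266, 301 and 343. Usp18, a negative regulator of interferon signalling, had control signals of 1055, 812, 1193 and 1456 and MET KO + EGFRi signals of 3498, 1008, 727 and 912. In both genes the MET KO + EGFRi array of day 0 stood above the other 7. With limma 0 of the 18 genes were called in the averaged comparisons or the interaction. The interferon list was chosen with earlier results known, and its part in the Psmb8, Psmb9 and Psmb10 values was not tested.

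Genes of class I antigen presentation had smaller differences. Of the 12 kept, 9 were higher in MET KO + EGFRi on day 0 (median 0.25), and 8 had lower values after day 0 in each arm (medians -0.07 in control and -0.11 in MET KO + EGFRi), with 0 called by limma in any averaged comparison. Nlrc5, the transactivator of class I and immunoproteasome genes, had control signals of 724, 456, 473 and 541 and MET KO + EGFRi signals of 934, 694, 516 and 672, so that day 0 was its highest array in each arm. Tap1, a peptide transporter encoded next to Psmb9, had control signals of 935, 709.8, 894 and 1067 and MET KO + EGFRi signals of 1178, 882, 790.2 and 867. B2m, the light chain of class I molecules, had control signals between 28594 and 35705 and MET KO + EGFRi signals between 25355 and 35496.

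Immune cells carry much immunoproteasome, and their markers are given beside it. All 12 Kupffer cell and macrophage markers kept, of 13 listed, were higher in MET KO + EGFRi averaged over days (median 0.61), and 1 of them, Cd5l, passed limma (adjusted p = 0.0488). These markers summed to between 16340 and 37067 over the control arrays and between 29808 and 53118 over those labelled MET KO + EGFRi. By the mean of the later days minus day 0, 9 of the 12 had lower values in control (median -0.20), where 11 were lower on day 1 (median -0.67) and 9 were higher on day 5 (median 0.27). By the same mean, 11 of the 12 had higher values in MET KO + EGFRi (median 0.47). Psmb8, Psmb9 and Psmb10 had lower means of the later days in both arms. The 10 monocyte and neutrophil markers with a probe set summed to between 5410 and 6682 over the control arrays and between 9899 and 13499 over those labelled MET KO + EGFRi, and S100a8 and S100a9 passed limma among the 8 kept. The 12 lymphocyte markers with a probe set, of which 5 were kept, summed to between 4504 and 5007 over the control arrays and between 4239 and 4983 over those labelled MET KO + EGFRi. No marker had a signal of 0 in any array, and their part in the proteasome values was not tested.

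Assembly chaperones did not share a direction. Psmg1 and Psmg2 form a pair that starts the alpha ring. Psmg2 had control signals of 636, 1357, 958 and 746 and MET KO + EGFRi signals of 786, 925, 652 and 732. Psmg1 had control signals of 1370.1, 1943, 2367 and 1816 and MET KO + EGFRi signals of 1824, 1726, 1655 and 1859. For both probe sets read, day 0 was the lowest control array, and in the other arm it was not. Other Psmg2 probe sets above the filter had day 2 as the lowest control array. Their control signals were 743, 1044, 637 and 1002, and 588, 451, 400.1 and 703, so the order of Psmg2 depended on the probe set. Psmg3, of the second chaperone pair, had control signals of 518, 411, 425 and 636 and MET KO + EGFRi signals of 397, 283, 356 and 261. Every MET KO + EGFRi array of Psmg3 was below every control array, an order found in 2.75% of all genes (arm difference -0.52, SE 0.19, limma adjusted p = 0.332). Psmg4, the partner of Psmg3, had control signals between 656 and 956 and MET KO + EGFRi signals between 574 and 893. Of the chaperones of the cap base, Psmd5 had control signals between 1234 and 1421 and MET KO + EGFRi signals between 1098 and 1408. Psmd10 had control signals between 178 and 316 and MET KO + EGFRi signals between 213 and 314. Psmd9 had every later array below day 0 in control and above it in MET KO + EGFRi, an order found in 5.83% of all genes. The median day 0 arm difference of the 7 assembly genes was -0.15.

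The other activators split. Psme3, the nuclear activator that works without ubiquitin, had control signals of 613, 469.7, 517 and 384 and MET KO + EGFRi signals of 729.7, 513, 455 and 334. Both of its day 0 arrays lay above all later ones (averaged log2 difference -0.53, SE 0.17, limma adjusted p = 0.346). That order was found in 4.62% of all genes. A weaker Psme3 probe set had 266, 432, 442 and 356 in control, so the direction of Psme3 in control depended on the probe set. Psme4, an activator linked to acetylated histones, had control signals of 2513, 3428, 3759.8 and 2723 and MET KO + EGFRi signals of 2817, 3188, 2612 and 2421, with the control arrays of days 1 and 2 above the rest of their arm. Psmf1, a regulator that binds the core, had control signals of 1161, 1202, 1207 and 1498 and MET KO + EGFRi signals of 1151, 1088, 1127 and 1052. Every MET KO + EGFRi array of Psmf1 was below every control array, by little (arm difference -0.18, SE 0.13, adjusted p = 0.66). Arms apart in that direction were found in 2.75% of all genes. Another Psmf1 probe set above the filter had control signals of 593, 632, 728 and 670. Its MET KO + EGFRi signals were 653, 561, 417 and 630, so its arms overlapped. Psmb11, the thymus form of the chymotrypsin-like subunit, had control signals of 54.3, 422, 295 and 164 and MET KO + EGFRi signals of 413, 269, 274 and 292. Its control array of day 0 lay below the 71 added before taking logs, so its folds are understated (arm difference 0.49, SE 0.38, adjusted p = 0.68). Psma8 had control signals between 32.8 and 212 and MET KO + EGFRi signals between 29.1 and 169.6 and was not tested. Of the genes that are not subunits, Psme3ip1 was higher in MET KO + EGFRi on each day and Psmc3ip was not.

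Genes that act with the proteasome were read from a list of partners. Of 28 listed partner and ubiquitin genes 18 were measured and kept. On day 0, 13 were higher in MET KO + EGFRi (median 0.23); after day 0, 13 were higher in control (median 0.30) and 9 in MET KO + EGFRi (median -0.02). With limma 0 of the 18 were called in the averaged comparisons or the interaction. Pomp, which matures the core, had control signals of 3162, 5107, 5099.7 and 4600.1 and MET KO + EGFRi signals of 3780.1, 4793, 4621 and 4594, so that both day 0 arrays were the lowest of their arm. Ubqln2, a shuttle that brings ubiquitinated proteins to the cap, had control signals of 812, 1449.5, 1616 and 1212 and MET KO + EGFRi signals of 1297, 1229.9, 1197 and 1342. Sem1, the smallest lid subunit under a symbol outside the rule, had control signals of 2277, 3143, 3895 and 3044 and MET KO + EGFRi signals of 3278, 3174, 3191 and 3491. Its control day 0 array was the lowest of the 8. Vcp, the ATPase that extracts ubiquitinated proteins from complexes, had control signals of 5548, 9857, 6261 and 9837 and MET KO + EGFRi signals of 7539, 9532, 8667 and 7623.

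Nfe2l1 itself had control signals of 909, 1236, 1048 and 1527 and MET KO + EGFRi signals of 1480.0, 1053, 1091 and 824. Its arrays had the order of most cap genes on day 0, with control below MET KO + EGFRi, and its control day 0 array was the lowest of that arm. On the later days its order was another. Its control signal was highest on day 5, while 10 of 17 cap genes were highest on day 1. In MET KO + EGFRi every later array was below day 0, while 14 of 17 cap genes were highest on day 1. Nfe2l2, which encodes the related factor NRF2, had control signals of 3387, 2845, 4193 and 2698 and MET KO + EGFRi signals of 2338, 3030, 3481 and 3714, with the opposite order on day 0. Of the 7 genes kept from a list of 9 on NRF1 processing and its partners, 0 were called by limma, and the median control change was 0.11. RNA level does not read the activity of NRF1, which is controlled by cleavage and degradation of the protein.

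Other probe sets of the same genes gave a second reading. For core and cap genes, 19 further probe sets of 13 genes passed the filter. Of these 15 were higher in MET KO + EGFRi on day 0 (median 0.25), and 16 had higher values after day 0 in control (median 0.49). After day 0 in MET KO + EGFRi 8 were higher and 11 lower (median -0.05). The second Psmc4 probe set had control signals of 270.1, 591, 461 and 336 and MET KO + EGFRi signals of 403, 520.2, 399 and 231, with control day 0 below the later control arrays, as in the probe set read. These probe sets were read on the same 8 arrays and are not replicates.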

How the data were processed

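Liver RNA of 8 groups was read on 1 array each. The authors deposited a linear intensity for every probe set of each array, computed with MAS5, per the submitters' processing notes; its version and detection calls are not given in the sources used here. Trimmed means of 500 show that arrays had been scaled alike. Per the labels' protocols, 6 µg of pooled total RNA was used. Here 71, the lower quartile of all signals, was added before log2, which understates folds of weak genes. Probe sets with 1 gene in the platform table (34945 of 45101) were used, each gene was represented by the probe set of highest mean signal, and genes with a mean log2 value of at least 8.24, the median, were kept. Of the members, 4 were read from probe sets ending in _s_at or _x_at, and 27 had more than 1 probe set.

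Averaged comparisons used limma 3.58.1 in R 4.3.3 with arm and day (3 residual degrees of freedom), or with the interaction of arm and TCPOBOP (2). Calls needed an adjusted p (Benjamini-Hochberg over all kept genes) under 0.05. The fit was checked on simulated data. Single-array differences have no test. Where no single day is named, a change or a value after day 0 is the mean of days 1, 2 and 5 minus day 0. The number of arrays limits the precision. Signals are not compared between probe sets.

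Members, classes and lists were chosen with earlier results of these data known. Every member may be named. Signals of every array are given for catalytic, immunoproteasome and activator genes and, in each role, for the 2 genes with the largest arm difference and the 2 with the largest response; other members named with values were chosen after their values were seen. From other lists, up to 4 genes of largest difference were named, beside Nfe2l1, Nfe2l2, Pomp, Tap1, B2m and Cyp2b10. Alternatives were other pseudocounts, filters, normalizations, probe set rules and leaving out each array.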

Additional observations from a re-analysis of the deposited data

Results flagged for a closer look

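In 5 of 48 kept members every later array lay on one side of day 0 in control and on the other side in MET KO + EGFRi. Over both orders together, that share of members was close to the share of all kept genes. The values below are the change in MET KO + EGFRi minus the change in control, on the log2 scale. For Psmc2 it was -1.10, for Psma5 -0.35, for Psmb11 -1.95 and for Psmf1 -0.23, with control above day 0 and MET KO + EGFRi below it; 4% of all kept genes had that order. For Psmd9, a chaperone of the cap base, it was 0.80 in the opposite order, which 5.83% of all kept genes had. Psmd9 had control signals of 1121, 824, 877 and 767 and MET KO + EGFRi signals of 659, 817, 816 and 1025, while a weaker probe set of that gene had 266, 465, 315 and 249.5 in control. The 3 later arrays of an arm share its day 0 array. For Psmb11 that array had a signal of 54.3 in control, near the floor, so its value is uncertain. The limma interaction gave an adjusted p of 0.999 for each of the 5 genes. The second Psmc2 probe set did not have the opposed order, and neither did a second Psma5 probe set, whose mean change was 0.50 in control and 0.064 in MET KO + EGFRi.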

How the results depend on the processing

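With limma, 0 members were called under every alternative and without each array, in every comparison that could be fitted; no interaction can be fitted without a day 0 array. Over all genes the number called was 27 for the arm difference, 27 for the later days and 8 for day 5 with no filter, against 68, 60 and 35, and 91, 84 and 77 with a filter at the upper quartile. For day 1 and day 2 it ran from 2 to 28 (15 as reported) and from 2 to 17 (7), and over all alternatives and left-out arrays from 18 to 91 for the arms, 5 to 84 for the later days and 3 to 77 for day 5. Of 31 core and cap genes, 29 were higher in MET KO + EGFRi on day 0 under the pseudocounts, filters and normalizations tried, 27 of 31 without probe sets ending in _s_at or _x_at, and 27 of 30 with the mean of a gene's probe sets. That mean also left 26 of 30 above day 0 in control and 16 of 30 in MET KO + EGFRi, against 30 and 22 of 31. The medians of the later days minus day 0 were 0.26 for cap (averaged), 0.35 for core and 0.54 for cap in control and -0.47 for immunoproteasome genes in MET KO + EGFRi with the mean of probe sets, which also gave immunoproteasome medians of -0.16 for the interaction and 0.16 for the arms on day 2. Without probe sets ending in _s_at or _x_at, the control cap median was 0.52. Quantile normalization gave core medians of 0.18 averaged, 0.37 in control and 0.037 in MET KO + EGFRi. Median centring gave 0.54 for core in control and an immunoproteasome interaction of -0.31. Leaving out each array, the averaged response ran from 0.064 to 0.47 for core, 0.083 to 0.64 for cap and -0.67 to -0.39 for immunoproteasome genes, and the core interaction from -0.45 to -0.27. The core and cap ends of the averaged response came from leaving out a day 0 array, which repeats the change within a single arm. The cause of the other shifts was not tested.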

Other observations

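Markers of liver cell types other than the immune cells described above gave these values. The 8 hepatocyte markers had a median log2 change after day 0 of 0.26 in the control arm and 0.45 in the other, with 0 called by limma. On day 0 their summed signal was 211042 in the control array and 229379 in the MET KO + EGFRi array. By the mean of the later days minus day 0, the 6 endothelial markers kept were lower in control in 6 of 6 (median -0.19) and higher in MET KO + EGFRi in 5 of 6 (median 0.32). On day 5 alone, 6 of 6 were above day 0 in control (median 0.12). Of 5 stellate cell markers kept, Dcn was higher in MET KO + EGFRi by limma. The other 4 were lower in that arm averaged over days, and the median of the 5 was -0.11. The linear signals of the 7 with a probe set summed to between 7303 and 8405 over the control arrays and between 10099 and 13242 over those labelled MET KO + EGFRi.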
